A study of Mus musculus with 9 samples.

Results

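The response of RAW264.7 cells to bacterial lipopolysaccharide (LPS) was followed gene by gene in the 6 samples titled CON and LPS, out of 9 samples in 3 groups of 3. RAW264.7 is a mouse macrophage line from a tumour induced by Abelson leukaemia virus. It is 1 line, so it stands for no other macrophage. By their titles, CON is read as untreated cells and LPS as cells given LPS at 100 ng/mL for 12 h, although every sample carries the same treatment text and no label states this per sample. The third group, ProNa, is not compared here. A gene belonged to the set described if the authors' mean FPKM (fragments per kilobase of transcript and per unit of library size), summed over its transcripts and averaged over CON and LPS, was at least 0.5. This held for 13839 of 54725 genes. The lowest member stood at 0.5 FPKM and the highest gene left out at 0.4983 FPKM.

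LPS is a glycolipid of the outer membrane of Gram-negative bacteria. It is handed by CD14 to Toll-like receptor 4 on macrophages, whose adaptors switch on NF-kB, MAP kinases and interferon regulatory factors. Macrophages so activated are known to secrete cytokines, to change their metabolism and to stop dividing.

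The cells carried the genes that mark this response. Prostaglandin synthase Ptgs2 went from 1.16 FPKM in CON to 1125 FPKM in LPS, and the itaconate-making enzyme Acod1 from 2.73 to 954 FPKM. The cytokine Tnf stood at 36.6 and 324 FPKM, the cytokine Il6 at 0.01 and 58.7 FPKM, and the inducible nitric oxide synthase Nos2 at 0.08 and 88.5 FPKM. All 5 rose in the authors' deposited table. These and all other FPKM values below are the authors' group means, which carry no SD. The library columns carry names that match no label and were not used here, so neither the spread within a group nor the overlap between the groups is given. Separate cultures are not stated for the samples of a group, and what the p-values measure is then only the spread between these samples, possibly a technical one. The number of reads per sample is unknown. In such bulk RNA, fewer cells of a type and less RNA per cell cannot be told apart.

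Most of the measured transcriptome differed between LPS and CON. The authors' deposited table gives an adjusted p below its upper limit (DESeq2, per the submitters' processing notes) for 12804 of the members, the genes called tested here. A gene is said here to have risen or fallen where its adjusted p in that table was under 0.05. This applied to 9056 genes, or 70.7% of those tested: 4611 rose (36.0%) and 4445 fell (34.7%), while 3748 did not pass. At least a 2-fold change as well was met by 2099 genes that rose (16.4%) and by 2074 that fell (16.2%). At least 10-fold changes numbered 411 upward and 357 downward, and at least 32-fold changes 196 and 125. These shares are the background against which each group of genes is read below.

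The split between rises and falls depends on the scale. The median log2 fold change of all tested genes was 0.01 in the authors' deposited table. Those fold changes lay above the log2 ratios of group mean FPKM by a median of 0.24. On the FPKM scale, with that offset taken off, the median was -0.23 and 3610 genes rose while 5793 fell, so 38.4% of calls were upward in place of 50.9%. Where a group of genes changes its balance on the FPKM scale, the second count is given beside the first.

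From 10 FPKM upward more genes rose than fell by at least 2-fold. Among genes with a mean of 0.5 to 2 FPKM, 19.3% rose and 20.7% fell by at least 2-fold. In the range of 50 to 200 FPKM the shares were 22.5% and 8.43%, and in the range of 200 to 1000 FPKM 25.9% and 12.3%. Genes that rose at least 2-fold held 8.04% of the summed FPKM in CON and 34.8% in LPS. Genes that fell at least 2-fold held 16.2% in CON and 3.71% in LPS. Both sets were chosen by their change, so only the size of these shifts is informative, not their direction. The number of genes that together hold 50% of the summed FPKM was 192 in CON and 221 in LPS.

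**Figure D1:**
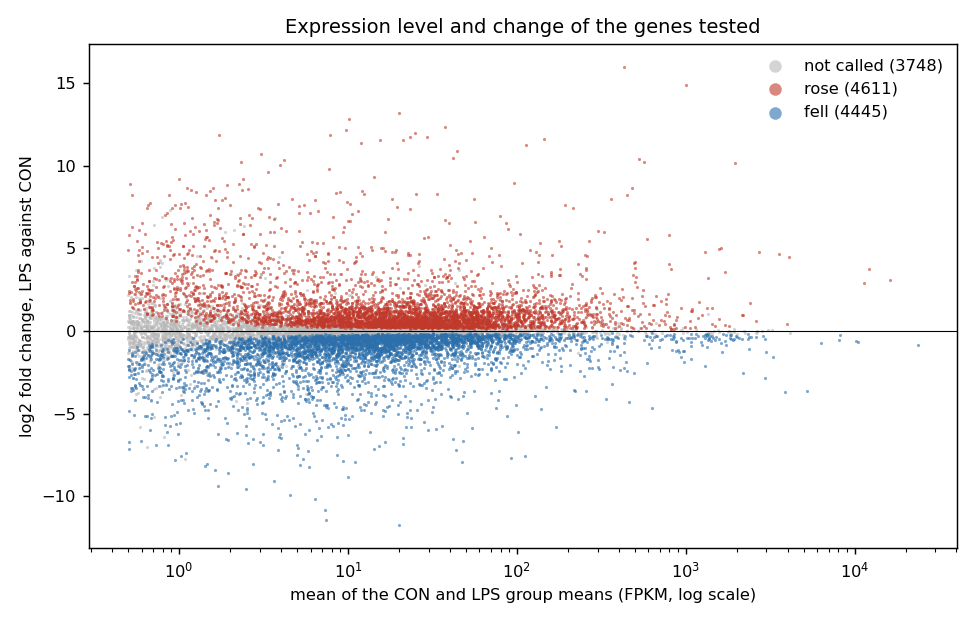
Each point is 1 of the 12804 tested genes, placed by the mean of its CON and LPS group means (FPKM, log scale) and by its log2 fold change in the authors' deposited table, red where it rose, blue where it fell and grey where it did not pass. Above about 50 FPKM the changes of at least 2-fold lie mostly above 0.

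The largest gains in FPKM were of iron storage, secreted and protective proteins. Fth1 and Ftl1, the heavy and light chains of the iron store ferritin, went from 3829.6 to 28349 FPKM and from 3136 to 19611 FPKM. Spp1, which encodes the secreted matrix protein osteopontin, went from 1959.9 to 22331 FPKM. Next came the peroxide-reducing enzyme Prdx1, from 429 to 7754 FPKM, and the chemokines Ccl3 and Ccl4. Odc1, which commits ornithine to polyamine synthesis, went from 115 to 3134 FPKM, a 32.5-fold rise by the authors' deposited table. The endoplasmic reticulum chaperone Hspa5, the autophagy receptor Sqstm1, the haem oxygenase Hmox1 and the chemokine Cxcl2 were also among the largest gains. All of these genes rose in the authors' deposited table.

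The largest losses were of mitochondrial transcripts and of resting macrophage products. Lyz2, lysozyme of phagocytes, went from 9719 to 661 FPKM, and Cst3, the protease inhibitor cystatin C, from 5255 to 598 FPKM. S100a4, a calcium-binding protein, went from 7256 to 468 FPKM, with a log2 fold change of -3.69 in the authors' deposited table. Fxyd2, a regulator of the sodium pump, went from 3856 to 519 FPKM. The mitochondrially encoded mt-Atp8, mt-Co1 and mt-Cytb also fell, mt-Atp8 from 33149 to 14188 FPKM. Gm28661, Gm28437, Gm10925 and Gm10222, predicted genes with no described product, fell as well. Reads of such loci may be shared with near-identical copies, so their values are uncertain. The translation factor Eef1a1 fell by 2694 FPKM with a log2 fold change of only -0.24 in the authors' deposited table and an adjusted p of 6.7e-05.

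**Figure D2:**
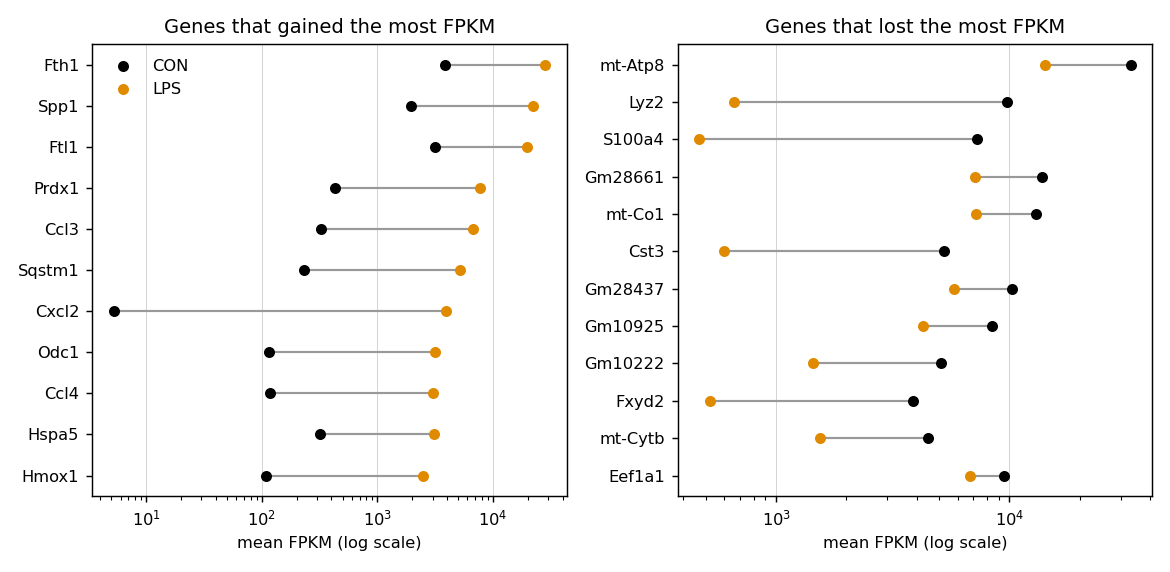
Group mean FPKM (log scale) in CON (black) and LPS (orange) of 11 of the 12 genes that gained the most FPKM and of the 12 that lost the most, joined by a line per gene and ordered by the size of the difference. Fth1 and Spp1 end at 28349 and 22331 FPKM in LPS, and S100a4 ends at 468 FPKM.

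Among genes with at least 1 FPKM in both groups, the largest relative rises went beyond cytokines. Procr, the endothelial protein C receptor, went from 4.81 to 893 FPKM, a log2 fold change of 8.20 in the authors' deposited table. The polo-like kinase Plk2 went from 2.38 to 382 FPKM and Phlda1 from 1.52 to 157 FPKM. Ercc1, a subunit of a DNA repair nuclease, went from 1.31 to 111 FPKM. How strand was handled is not stated, so reads of Ercc1 and of a gene that overlaps it on the other strand cannot be told apart. The lysosomal peptide transporter Slc15a3 went from 11.9 to 646 FPKM, and Hilpda, a lipid droplet protein, from 4.14 to 205 FPKM. Cxcl2, Rsad2, Ccl5, Dusp1, Socs3, Cd40 and Ier3 were the others of the 15 largest beside Ptgs2 and Acod1, with log2 fold changes of 6.08 to 10.16 in the authors' deposited table.

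The 15 largest relative falls came from genes of several functions. The immunoglobulin heavy chain gene Ighm went from 222 to 1.26 FPKM. Mycn, a transcription factor of the MYC family, went from 199 to 2.4 FPKM (log2 fold change -6.13 in the authors' deposited table). Alox5, the lipoxygenase that starts leukotriene synthesis, went from 58.4 to 1.07 FPKM. Itga4, the alpha 4 integrin chain, went from 336 to 5.12 FPKM. The Ras activator Rasgrp3 went from 171 to 4.18 FPKM and the desaturase Scd1 from 95.2 to 5.55 FPKM. Mcm6, Kif11, Rrm2, Anln and Ccnb1, which serve DNA replication and division, had log2 fold changes between -5.47 and -4.80 in the authors' deposited table. The group means gave Kif11 a smaller fall, from 15.3 to 2.9 FPKM, a log2 ratio of -2.21 against a log2 fold change of -5.26 in the authors' deposited table. Kbtbd11, Tmem176b, Ephx1 and the lysosomal sulfatase Arsb completed the 15.

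Some genes were near the floor in 1 group. Under 0.1 FPKM in CON and at least 1 FPKM in LPS were 292 members, of which 139 rose in the authors' deposited table. The reverse held for 174 members, of which 89 fell. The others were not tested or were not called in that direction. These limits on FPKM set the direction of each group in advance, so it is no result. Lcn2, the iron-siderophore binding protein lipocalin 2, went from 0.08 to 2004 FPKM, and Csf3, granulocyte colony-stimulating factor, from 0.0167 to 859 FPKM. Pdpn, the membrane protein podoplanin, went from 0.0367 to 50.1 FPKM, and Il1a from 0.0667 to 84.1 FPKM. Ccl7 was listed at 0 in CON and stood at 75.3 FPKM in LPS. The small RNA loci Mir6236 and n-R5s113, listed at 0 in CON, passed in the authors' deposited table with adjusted p-values of only 0.033 and 0.046, and n-R5s141, Gm26391 and AC159539.2 did not pass there.

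On the other side, Hpgd, which degrades prostaglandins, went from 14.7 FPKM to a listed 0 in LPS. Asb10 and Nrm were listed at 0 in LPS too, from 14.8 and 12.8 FPKM. Sema4g, a semaphorin, went from 40.1 to 0.0166 FPKM (by the authors' deposited table, adjusted p of 1.4e-29). The mitotic genes Pimreg, Pbk, Nusap1 and Kif2c and the repressor E2f8 went from between 10 and 21.9 FPKM to under 0.1 FPKM. Lrr1, Cbr2 and Ankle1 completed this group. All 12 fell in the authors' deposited table, a direction set by their choice as genes under 0.1 FPKM in LPS.

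Base composition and short motifs in the promoters are given as a description, with no test. RefSeq lists exactly 1 promoter (GRCm38.p6, 250 bases before to 50 after the start) for 7406 of the tested genes, and 11868 tested genes matched a RefSeq gene. CpG frequency relative to that expected from base content had a median of 0.786 over all 7406, of 0.714 over 1179 genes that rose at least 2-fold and of 0.746 over 1212 that fell at least 2-fold. For the 111 genes that rose at least 32-fold it was 0.319. An AP-1 site (TGANTCA, either strand), the element bound by Fos and Jun proteins, was in 8.23% of promoters that rose at least 2-fold, 3.80% of those that fell, 4.69% of all tested and 8.04% of all 22631 promoters with a single listing. An amino acid response element core (TGATGNAA), as bound by ATF4, was in 4.24%, 2.06%, 2.31% and 4.04%. The string GGGNNTTCC, a partial form of the NF-kB site, was in 6.79%, 6.11%, 7.49% and 5.68%. This string was thus no more frequent in this window among genes that rose than among all tested. Other forms of the NF-kB site were not counted, so nothing is concluded here about NF-kB sites as a whole. The paired interferon regulatory factor motif GAAANNGAA was in 8.74%, 8.09%, 7.43% and 8.58%. A match describes letters in the window and shows no binding.

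To show what such a match looks like, promoters with an AP-1 site are printed 5′ to 3′ with the site in capitals. They are of the largest rises among members with at least 1 FPKM in both groups, with a chromosome left out of the choice. That of Procr lies at chr2:155750967-155751266 (plus strand) and that of Rsad2, an antiviral gene, at chr12:26456403-26456702 (minus strand).
Procr: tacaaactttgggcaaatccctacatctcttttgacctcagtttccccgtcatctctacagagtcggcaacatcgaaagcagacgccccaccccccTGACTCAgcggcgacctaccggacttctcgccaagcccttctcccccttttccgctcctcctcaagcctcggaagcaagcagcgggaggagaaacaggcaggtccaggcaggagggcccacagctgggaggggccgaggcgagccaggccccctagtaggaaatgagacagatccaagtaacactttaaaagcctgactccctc
Rsad2: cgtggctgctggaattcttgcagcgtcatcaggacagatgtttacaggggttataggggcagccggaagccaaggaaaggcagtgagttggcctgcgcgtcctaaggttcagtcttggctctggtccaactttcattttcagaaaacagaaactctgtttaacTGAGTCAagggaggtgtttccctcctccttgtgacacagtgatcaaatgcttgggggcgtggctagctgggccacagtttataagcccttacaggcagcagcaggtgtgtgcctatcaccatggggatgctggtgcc

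Motifs of cell cycle promoters were counted in the genes that fell, those that rose, all tested and all promoters, with no test of a difference. The E2F motif TTTNNCGC was in 12.3% of promoters that fell at least 2-fold, 7.12% of those that rose, 9.72% of all tested and 5.35% of all promoters. The CHR motif TTTGAA, bound by the complex that holds mitotic genes off outside division, was in 17.3%, 12.3%, 12.6% and 18.2%, so its share in genes that fell was below that of all promoters. The CCAAT box was in 46.4%, 39.5%, 40.6% and 38.5%. Promoters with a CHR motif were chosen for print under the same limits as those with an AP-1 site. The largest falls among them were of Mycn at chr12:12941787-12942086 (minus strand) and the mitotic kinesin Kif11 at chr19:37376132-37376431 (plus strand). The contractile ring protein Anln at chr9:22389157-22389456 (minus strand) came next. These promoters are printed with the motif in capitals, which Anln holds as 2 adjacent copies on opposite strands.
Mycn: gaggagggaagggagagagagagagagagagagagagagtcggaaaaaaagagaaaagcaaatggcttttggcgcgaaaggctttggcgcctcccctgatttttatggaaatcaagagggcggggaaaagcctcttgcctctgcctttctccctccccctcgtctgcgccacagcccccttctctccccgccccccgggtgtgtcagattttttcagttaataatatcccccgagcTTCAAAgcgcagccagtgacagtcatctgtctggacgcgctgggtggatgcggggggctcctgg
Kif11: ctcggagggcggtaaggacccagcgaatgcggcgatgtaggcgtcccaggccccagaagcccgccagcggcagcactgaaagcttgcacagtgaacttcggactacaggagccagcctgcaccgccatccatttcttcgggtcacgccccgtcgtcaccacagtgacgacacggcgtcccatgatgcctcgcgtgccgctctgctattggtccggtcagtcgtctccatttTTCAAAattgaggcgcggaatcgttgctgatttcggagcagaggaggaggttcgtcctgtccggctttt
Anln: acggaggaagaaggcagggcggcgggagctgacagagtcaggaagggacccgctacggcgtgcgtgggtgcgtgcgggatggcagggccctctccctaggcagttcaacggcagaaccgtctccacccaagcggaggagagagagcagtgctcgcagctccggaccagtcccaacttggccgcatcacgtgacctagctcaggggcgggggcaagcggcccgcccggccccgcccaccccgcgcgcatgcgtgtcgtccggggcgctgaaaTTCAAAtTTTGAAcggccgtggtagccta

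A composite motif was looked up after the values of Hspa5, an endoplasmic reticulum chaperone, had been seen. Its count among genes that rose is thus partly set by that choice and is not a test. How many endoplasmic reticulum genes lack it was not counted. The endoplasmic reticulum stress element is CCAAT followed by CCACG after 9 bases, the pair bound by NF-Y and ATF6. It was in 14 of the 7406 promoters, in 8 of the 1179 that rose at least 2-fold and in 0 of the 1212 that fell at least 2-fold. The 8 were Hspa5, Creld2, Hsp90b1, Syvn1, Pdia6, Alg12, Dnajc3 and Calr, which encode chaperones, folding factors and quality control enzymes of that compartment. Hspa5 went from 318 to 3073 FPKM and Creld2 from 40.3 to 229 FPKM, with log2 fold changes of 3.57 and 2.78 in the authors' deposited table. Of the other 6 promoters, Canx rose, Ero1b, Hnrnpa3 and Pan2 fell and Tdrd9 and Spats2l did not pass in that table, and none of these reached a 2-fold change that passed. The promoters with the largest rises, Hspa5 at chr2:34771840-34772139 (plus strand) and Creld2 at chr15:88819396-88819695 (plus strand), are printed with the element in capitals.
Hspa5: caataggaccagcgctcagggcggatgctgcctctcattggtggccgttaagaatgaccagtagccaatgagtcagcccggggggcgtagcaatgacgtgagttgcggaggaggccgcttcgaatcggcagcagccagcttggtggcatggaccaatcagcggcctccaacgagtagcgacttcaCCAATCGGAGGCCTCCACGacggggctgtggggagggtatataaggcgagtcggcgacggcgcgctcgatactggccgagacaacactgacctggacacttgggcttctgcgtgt
Creld2: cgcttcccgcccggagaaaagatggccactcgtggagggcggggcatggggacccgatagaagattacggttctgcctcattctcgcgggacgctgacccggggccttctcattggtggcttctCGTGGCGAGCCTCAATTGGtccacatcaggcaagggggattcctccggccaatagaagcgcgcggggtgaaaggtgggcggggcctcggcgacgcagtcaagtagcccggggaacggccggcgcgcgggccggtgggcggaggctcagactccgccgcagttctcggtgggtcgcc

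Most of the early secretory pathway rose. Coats of the COPII and COPI type form the vesicles that carry proteins out of the endoplasmic reticulum and back from the Golgi. Of 64 tested members of that list 52 rose and 4 fell, and 26 rose at least 2-fold while 0 fell as much, with a median log2 fold change of 0.78 in the authors' deposited table. On the FPKM scale 46 rose and 7 fell. The cargo receptor Surf4 went from 65.1 to 251 FPKM and Mcfd2, a cofactor of another cargo receptor, from 29.5 to 136 FPKM. Of the COPII coat, Sec24d went from 12.8 to 75 FPKM and Sec23b from 45 to 111 FPKM. The 4 that fell were Copg2, Arf3, Trappc6a and Golga3, with log2 fold changes of -0.78 to -0.25 in the authors' deposited table.

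Pathway names carried by the same table were counted next. Among 202 KEGG pathways with at least 15 tested members and outside named diseases, protein export had the highest share that rose, 23 of 27 genes (85.2%), with a median log2 fold change of 1.17 in the authors' deposited table. The proteasome followed, with 40 of 49 that rose and 6 that fell, among them Psmd11 from 59.1 to 264 FPKM, Psmd8 and Psmb6. Protein processing in the endoplasmic reticulum had 110 of 155 that rose and 24 that fell, with the stress factor Ddit3 from 17.7 to 503 FPKM and Wfs1 from 1.46 to 13.7 FPKM. Gm10177 and Sec61g were named in protein export beside Hspa5, the former a predicted gene whose reads may be shared with its parent. Collecting duct acid secretion, a pathway made up largely of subunits of the vacuolar proton pump, had 15 of 20 that rose, including Car2, a carbonic anhydrase, from 10.9 to 57.1 FPKM, the pump subunit Tcirg1 from 317 to 805 FPKM and Gm13075. The other high shares were of the IL-17, RIG-I-like receptor and TNF signalling pathways and the hematopoietic cell lineage, with 61.6% to 68.3% of members that rose. Their members with the largest changes were Csf3, Lcn2, Ccl7, Il6, Il1b, Isg15, Tnf, Cxcl10, Edn1 and Lif. Edn1, the vasoconstrictor endothelin 1, was listed at 0 in CON and stood at 40 FPKM in LPS.

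The pathways with the highest shares that fell were of DNA synthesis and of carbon metabolism. Mismatch repair had 19 of 22 that fell and 1 that rose, and DNA replication 30 of 36 and 2. A gene can belong to more than 1 pathway, and the overlap of these pathways was not counted, so they are not separate results. Pole, the catalytic subunit of a replicative polymerase, went from 15.6 to 0.28 FPKM, Mcm5 of the replicative helicase from 46 to 0.993 FPKM and Exo1, a repair exonuclease, from 7.67 to 0.303 FPKM. The DNA ligase Lig1 fell as well. Steroid biosynthesis had 12 of 16 that fell, including Tm7sf2, from 14.2 to 1.61 FPKM. The citrate cycle had 19 of 27 that fell, propanoate metabolism 18 of 26, butanoate metabolism 10 of 15 with 0 that rose, and biosynthesis of unsaturated fatty acids 14 of 22. Acat1 and Acat2, thiolases shared by several of these, went from 105 to 13.6 FPKM and from 58.9 to 5.38 FPKM. Mdh1, Suclg2, Idh2, Acaca, Hadh, Acot1 and Fads2 also fell in the authors' deposited table. Renin secretion, with 20 of 32 that fell and 12 that rose, covers cyclic AMP and calcium signalling genes such as Cacna1d and Calml4.

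**Figure D3:**
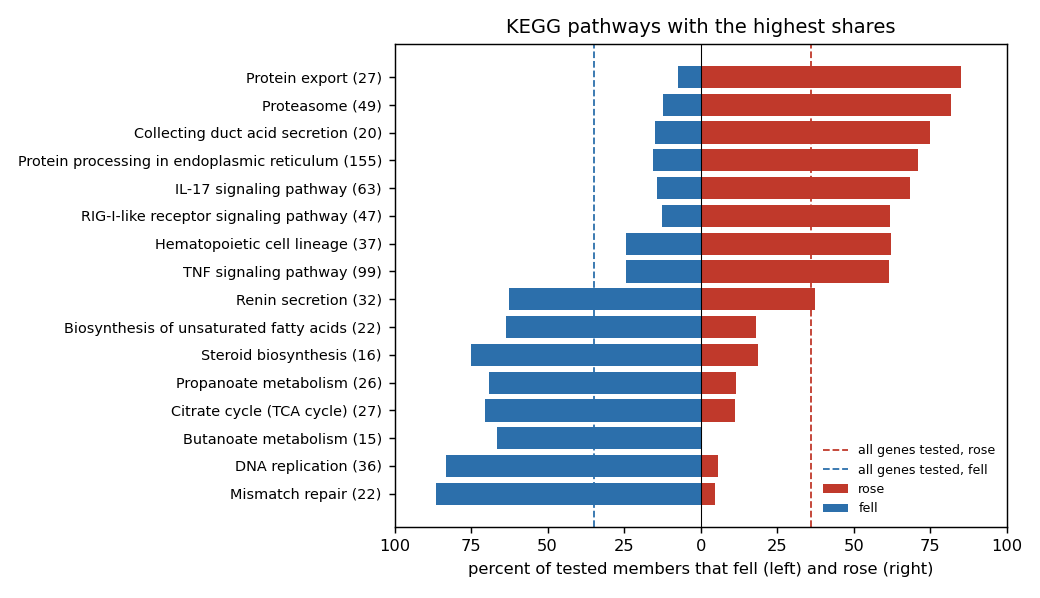
Percent of tested members of each KEGG pathway that rose (red, right) and fell (blue, left), with the number tested in brackets, for the 8 pathways with the highest share in each direction. Dashed lines mark the 36.0% and 34.7% of all tested genes, and mismatch repair and DNA replication lie at 86.4% and 83.3% that fell.

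More metal transporters rose than fell. Of 25 tested zinc, copper and manganese transporters 16 rose and 5 fell, 12 and 1 of them by at least 2-fold, with a median log2 fold change of 0.69 in the authors' deposited table. The divalent metal transporters Slc11a2, which serves iron uptake, and Slc11a1, the NRAMP1 transporter of phagosomes, went from 21.2 to 156 FPKM and from 59.9 to 362 FPKM. Slc31a2, of the copper transporter family, went from 16.1 to 91.4 FPKM and the zinc exporter of the endoplasmic reticulum Slc39a7 from 121 to 270.1 FPKM. Slc39a13, Slc39a10, Slc39a11 and Slc30a5 fell, with log2 fold changes of -1.07 to -0.43 in the authors' deposited table.

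Transporters of other small molecules split. Of 46 carriers of sugars, nucleosides, anions and vitamins 18 rose and 22 fell. The glucose transporter Slc2a1 went from 34.9 to 151 FPKM, whereas Slc2a6, of the same family, went from 105 to 28.3 FPKM. The haem transporter Slc48a1 and the phosphate transporter Slc20a1 rose to 51.9 and 121 FPKM. The choline transporters Slc44a1 and Slc44a2 fell, from 58.1 to 10.8 FPKM and from 161 to 45.7 FPKM. Slc19a1, the folate carrier, went from 24.4 to 3.45 FPKM.

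Genes of amino acid and one-carbon metabolism went both ways. In the list of serine, one-carbon and methionine metabolism 16 of 40 rose and 17 fell. Beside Odc1, the spermidine acetyltransferase Sat1 went from 232 to 870.3 FPKM, the cysteine-forming enzyme Cth from 2.23 to 44.1 FPKM and the mitochondrial folate enzyme Aldh1l2 from 6.16 to 43 FPKM. Its cytosolic counterpart Aldh1l1 fell from 3.93 to 0.207 FPKM, as did Tyms and Mthfd1, with log2 fold changes of -1.63 and -1.50 in the authors' deposited table.

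Most nucleotide genes fell, and the named phosphorylases were among those that rose. Of 45 purine and pyrimidine genes 26 fell and 13 rose, 18 and 7 by at least 2-fold, with a median log2 fold change of -0.42 in the authors' deposited table. Adssl1, an adenylosuccinate synthase, went from 267 to 8.7 FPKM, and Paics and Prps2 of purine synthesis from 144 to 29.8 FPKM and from 19.1 to 2.61 FPKM. The phosphorylases Upp1 and Pnp, which split nucleosides, went from 0.303 to 66.7 FPKM and from 45.7 to 141 FPKM, and the AMP deaminase Ampd3 from 4.31 to 69.5 FPKM. The isoenzymes of the guanine nucleotide branch went opposite ways: Impdh2 from 115 to 17 FPKM and Impdh1 from 22.4 to 46.1 FPKM. In the NAD and tryptophan list 7 of 21 rose and 7 fell, 4 and 10 on the FPKM scale. The deacetylases Sirt2 and Sirt6 and the ectoenzyme Bst1 rose, whereas Parp1, Nnt, Nadk and Kmo fell in the authors' deposited table. Nampt had a log2 fold change of 0.33 there and did not pass on the FPKM scale.

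Lipid genes went both ways. Of 43 genes of fatty acid synthesis and lipid storage 15 rose and 21 fell. The lipid droplet coat Plin2 went from 109 to 900.0 FPKM, Plin3 from 15.5 to 34.4 FPKM and the acyltransferase Gpat3 from 0.86 to 13.4 FPKM. The desaturase Scd2 went from 478 to 34.4 FPKM, Fads2 from 147 to 9.92 FPKM and lipoprotein lipase Lpl from 414 to 29.8 FPKM. Fatty acid oxidation and peroxisome genes included 26 of 50 that fell and 14 that rose, 12 and 4 by at least 2-fold. Acaa1a, Hadh and Scp2 were among the falls, Hadh, a mitochondrial enzyme of fatty acid oxidation, from 31.3 to 5.98 FPKM. Catalase, Cat, went from 38.9 to 178 FPKM, and Ppard, Slc25a20 and Acadl rose too. Sphingolipid genes were divided, with 20 of 41 that rose and 18 that fell, or 16 and 21 on the FPKM scale. Sphk2, Degs1, Ugcg and B4galt5 rose 3.64-fold to 4.54-fold in the authors' deposited table, and Cerk, Smpdl3b, Sgpp1 and Sptssa fell.

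Mitochondrial carriers fell more often than they rose. Of 46 tested 23 fell and 12 rose. The uncoupling protein family member Ucp2 went from 746 to 120.4 FPKM, and the ATP/ADP exchangers Slc25a4 and Slc25a5 from 144 to 26.6 FPKM and from 889 to 362 FPKM. Slc25a37, the iron importer mitoferrin, went from 18.9 to 64.4 FPKM and Slc25a33 from 3.07 to 20.8 FPKM. Genes of mitochondrial import, folding and dynamics were divided, 25 of 66 up and 24 down, or 17 and 33 on the FPKM scale. The protease Lonp1, the chaperone Hspa9 and its exchange factor Grpel1 rose, Lonp1 from 55.6 to 159 FPKM. The prohibitins Phb and Phb2, the outer membrane channel Vdac1 and the chaperone Trap1 fell, with log2 fold changes of -1.05 to -0.82 in the authors' deposited table.

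In the lists of ribosome biogenesis and splicing factors more genes fell than rose. Ribosome biogenesis factors fell in 26 of 42 cases and rose in 6, yet 2 fell and 0 rose by at least 2-fold, with a median log2 fold change of -0.31 in the authors' deposited table. The wider KEGG pathway of ribosome biogenesis was near balance, with 29 of 77 that rose and 31 that fell, 6 and 3 by at least 2-fold, and a median log2 fold change of 0.03 in the authors' deposited table. On the FPKM scale 15 of its genes rose and 38 fell. Dkc1, the pseudouridine synthase of guide RNA particles, went from 41.4 to 11.2 FPKM, and Rrp1b, Nhp2 and Nop56 fell with it. Nop14, Noc3l, Nop16 and Nip7 rose, at log2 fold changes of 0.56 to 0.76 in the authors' deposited table. Splicing factors fell in 31 of 52 cases and rose in 10, with Hnrnpa1 from 407 to 144 FPKM and Srsf1, Hnrnpl and Prpf19 next. Rbm39, Prpf3 and Prpf6 rose, and Clk4, called as a rise, did not pass on the FPKM scale.

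Nuclear envelope and chromatin genes included larger falls. Of 60 genes of the nuclear pore, lamina and transport receptors 32 fell and 17 rose, 12 and 1 by at least 2-fold. The lamin B receptor Lbr went from 45.9 to 5.36 FPKM, Lmnb1 from 36.8 to 7.59 FPKM, Tmpo from 66.4 to 14.9 FPKM and the pore membrane protein Nup210 from 10 to 0.357 FPKM. The import receptors Kpna4 and Kpna3 rose, as did Nup62 and Ipo4. Chromatin writers, erasers and DNA methylation factors fell in 47 of 88 cases and rose in 26, 23 and 10 by at least 2-fold. Uhrf1, which guides maintenance methylation of DNA, went from 38.6 to 0.943 FPKM, Hells from 16.6 to 1.75 FPKM and the heterochromatin protein Cbx5 from 20.2 to 2.25 FPKM. Arid5a, Jarid2, Phc2 and Kdm5b rose, Arid5a from 2.2 to 27.9 FPKM. Protein domains named in the same table were looked at after the values were seen, and some are given as counts. Of genes with an HMG box 15 of 23 fell and 3 rose, and with a PWWP domain 13 of 20 and 4. With a chromodomain 12 of 21 fell and 3 rose, and with a SNF2 helicase domain 19 of 32 and 7. Others went the other way: with a JmjC domain 12 of 21 rose and 6 fell, and with a histone domain 25 of 55 and 12.

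Translation factors and mRNA decay factors were divided. In the translation list 18 of 46 rose and 17 fell, or 15 and 27 on the FPKM scale. Eif4ebp1, a repressor of cap-dependent translation, went from 31.6 to 136 FPKM, and its relative Eif4ebp2 from 25.1 to 13.2 FPKM. Eif1a, Eif3c and Eif2b2 rose, and Eif4b, Eef2 and Eif2s3x fell. Of 57 decay genes 15 rose and 23 fell, or 7 and 33 on the FPKM scale. Zc3h12a, the endonuclease Regnase-1 that cleaves cytokine transcripts, went from 7.07 to 47 FPKM, with Zc3h12c, Btg1 and Cnot4 next. Exosc2 and Exosc8 of the exosome, Lsm2 and Cnot6l fell, with log2 fold changes of -1.46 to -1.22 in the authors' deposited table.

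**Figure D4:**
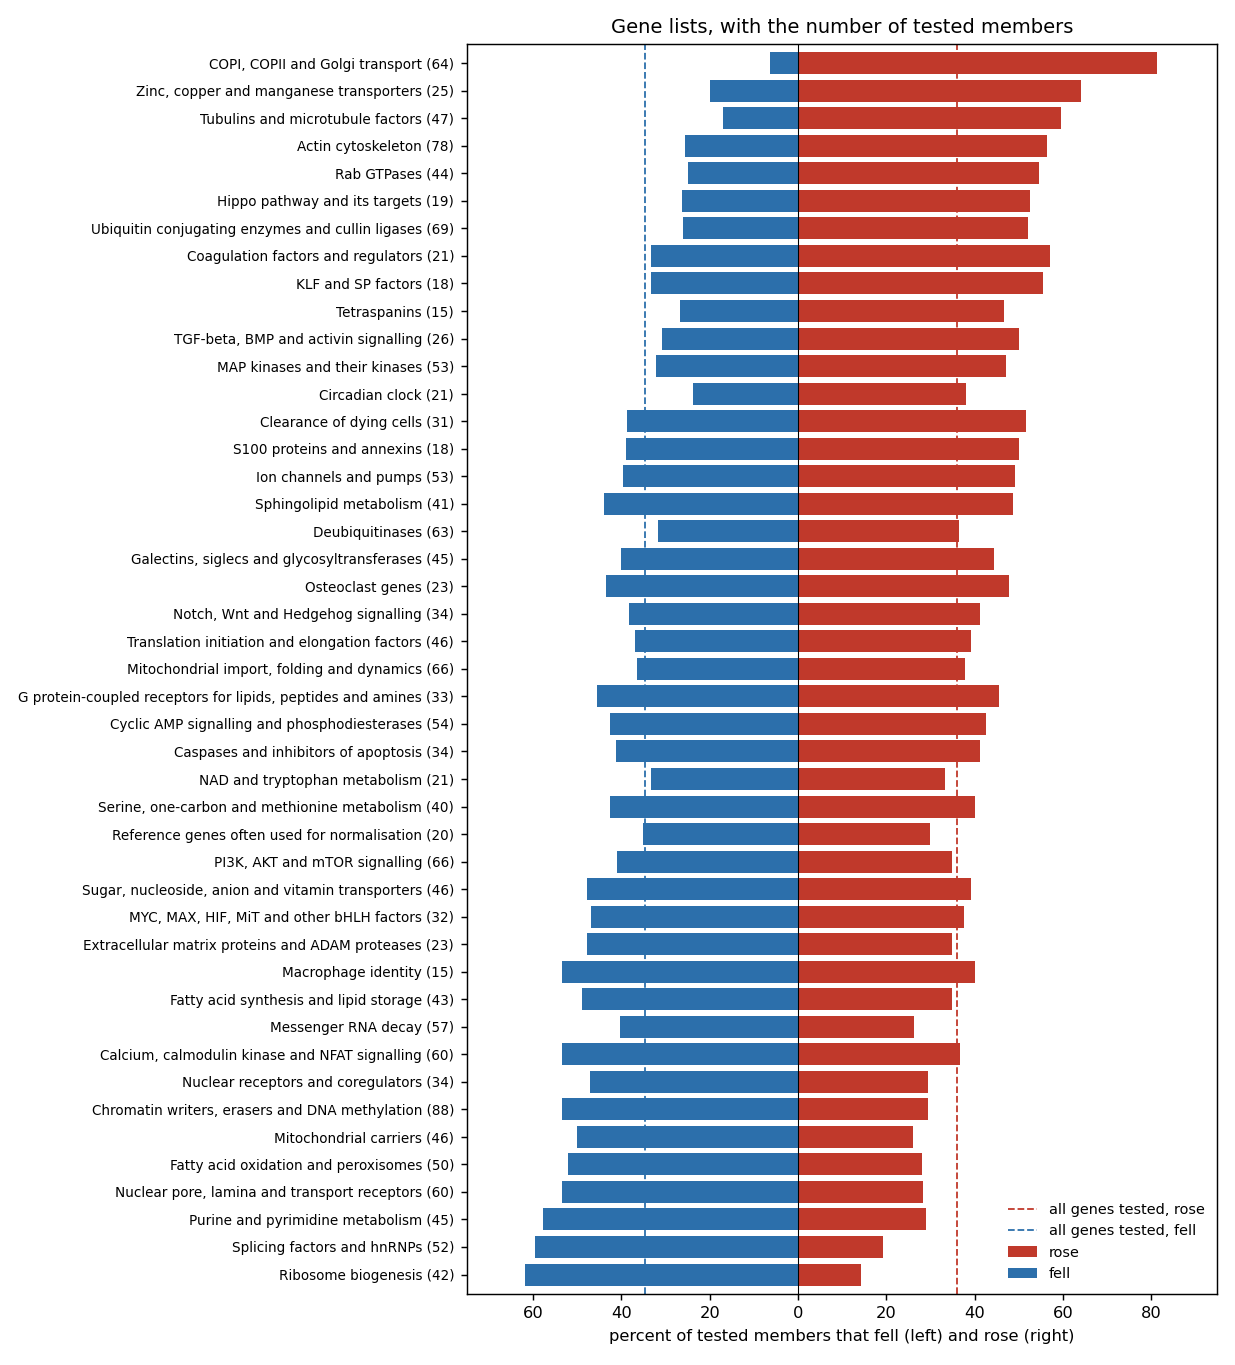
Percent of tested members of each gene list that rose (red, right) and fell (blue, left) in the authors' deposited table, for 45 lists with at least 10 tested members and with the number tested in brackets. Dashed lines mark the 36.0% and 34.7% of all tested genes, and the lists run from vesicle coats, with 81.2% that rose, to ribosome biogenesis, with 61.9% that fell.

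In both cytoskeletal lists more genes rose than fell. Of 47 tubulins and microtubule factors 28 rose and 8 fell. Members of the tubulin family went both ways: Tuba4a from 38.4 to 149 FPKM, Tubb6 from 84.5 to 199 FPKM and Tubb2a from 25.8 to 55.9 FPKM, against Tuba1b from 553 to 149 FPKM and Tubb5 from 402 to 166 FPKM. Stmn1, which frees tubulin from microtubules, went from 190.5 to 6.26 FPKM. Kinesin motors, looked at after the values were seen, fell in 19 of 32 cases, 18 of them by at least 2-fold. In the actin list 44 of 78 rose and 20 fell, but on the FPKM scale 31 rose and 29 fell. Marcksl1 and the formin Daam1 rose 10.1-fold and 6.23-fold in the authors' deposited table, and the filament-severing protein Gsn and the motor Myo1f fell from 407 to 63.3 FPKM and from 85.4 to 11.8 FPKM. Msn and Coro1b rose, and Vcl and Myl12b fell.

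Small GTPases and their partners went both ways. Of 44 Rab GTPases and partners 24 rose and 11 fell, or 20 and 15 on the FPKM scale. Rab20 went from 5.98 to 56.7 FPKM, Rab11fip1 from 4.44 to 35.2 FPKM, and Rab8b and Rab5a rose by less. Rab7b went from 75 to 11.3 FPKM, and Rab11fip5, Rab3d and Rab27a fell. Rhob went from 3.43 to 83.5 FPKM and Rhoc from 134 to 861 FPKM. Racgap1, needed for cell cleavage, went from 31.3 to 1.99 FPKM and the kinase Pak1 from 42.7 to 10.4 FPKM. Rnd1 and Arhgap10 rose, and Arhgap45 and Dock1 fell. Of 15 tetraspanins 7 rose and 4 fell, with Cd53 from 185 to 619 FPKM, Cd63 from 342 to 802 FPKM and Tspan4 from 70.3 to 12.8 FPKM.

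Surface receptors went both ways, many by large amounts. Of 33 tested G protein-coupled receptors 15 rose and 15 fell, 13 and 11 by at least 2-fold, and 14 and 15 on the FPKM scale. Gpr183, the oxysterol receptor that guides migration, went from 86.7 to 0.537 FPKM, the leukotriene receptor Cysltr1 from 10.7 to 0.8 FPKM, and the sphingosine 1-phosphate receptor S1pr1 from 11.2 to 0.907 FPKM. The prostacyclin receptor Ptgir went from 4.17 to 44.6 FPKM, Gprc5a from 0.187 to 50.3 FPKM and the lysophosphatidic acid receptor Lpar1 from 1.43 to 13.1 FPKM. Of 53 ion channels and pumps 26 rose and 21 fell, or 24 and 27 on the FPKM scale. The cation channel Trpm4 went from 3.48 to 35.8 FPKM and the lysosomal chloride exchanger Clcn7 from 18.7 to 62.2 FPKM. Itpr1, Itpr3 and Atp2a3, which move calcium across the endoplasmic reticulum membrane, fell 4.96-fold, 3.63-fold and 2.74-fold in the authors' deposited table. Clic4 and Mcoln2 rose.

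Glycan receptors and clearance genes were divided in the same way. In the list of galectins, siglecs and glycosyltransferases 20 of 45 rose and 18 fell, or 18 and 20 on the FPKM scale. Lgals9 went from 34.9 to 139.9 FPKM and Lgals8 from 51.1 to 146 FPKM, whereas the siglecs Cd33 and Siglec1 went from 59.1 to 4.72 FPKM and from 32.4 to 4.8 FPKM. The sialyltransferases St8sia4 and St6gal1 fell 10.2-fold and 13.7-fold in the authors' deposited table, and the enzymes Galnt3 and Galnt6, which start O-linked glycans, rose. Of 31 genes for the clearance of dying cells 16 rose and 12 fell, or 13 and 15 on the FPKM scale. The bridging protein Mfge8 went from 25.7 to 93.7 FPKM and the integrin chain Itgav from 10.4 to 32.5 FPKM, with Calr and Cd300ld next. Pros1, which bridges to TAM receptors, went from 16 to 1.27 FPKM and the cholesterol exporter Abca1 from 4.61 to 0.577 FPKM.

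Coagulation and matrix genes held a few very large changes. Of 21 coagulation factors and regulators 12 rose and 7 fell, 9 and 7 by at least 2-fold. Beside Procr, the urokinase receptor Plaur went from 37 to 316 FPKM and Serpinb9 from 2.12 to 43.1 FPKM. Urokinase itself, Plau, went from 29.3 to 10 FPKM, and Vkorc1 and F10 fell. Of 23 matrix and ADAM genes 8 rose and 11 fell, although their summed FPKM went from 2872 to 23279 through Spp1. The sheddases Adam17 and Adam10 went from 82.5 to 22.1 FPKM and from 32.1 to 14 FPKM, and Adam8 from 156 to 333 FPKM. Tgm2 and Emilin2 rose, and Adamts10 and Loxl3 fell. In the S100 and annexin list, 9 of 18 rose and 7 fell, or 7 and 9 on the FPKM scale. S100a8, which forms calprotectin, went from 0.46 to 191 FPKM, S100a6 from 1300.5 to 498 FPKM and Anxa5 from 602 to 984 FPKM.

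Kinase pathway genes went both ways, and genes were named from each direction by rule. In the PI3K, AKT and mTOR list 23 of 66 rose (34.8%) and 27 fell (40.9%), against 36.0% and 34.7% of all tested genes. The leukocyte catalytic subunits Pik3cd and Pik3cg went from 35 to 7.84 FPKM and from 24.9 to 10.4 FPKM, and Pik3cb from 8.86 to 25.9 FPKM. The mTOR inhibitor Deptor went from 9.68 to 0.393 FPKM, Sesn1 from 25.7 to 2.71 FPKM and Sesn2 from 8.69 to 21.2 FPKM. The kinase Pim1 went from 5.71 to 39.1 FPKM. Of 53 MAP kinase pathway genes 25 rose and 17 fell, or 20 and 25 on the FPKM scale. Map3k20, Map4k4, Map2k2 and Mknk2 rose, and Rasa3, Spred1 and Mapkapk2, which encodes the p38 target MK2, fell, the last from 231 to 73.5 FPKM.

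Calcium and immune receptor kinases went both ways. Of 60 genes 22 rose and 32 fell. Src went from 0.247 to 38.8 FPKM and Syk, the kinase of immunoreceptors, from 21.8 to 76.1 FPKM. Camk1 went from 408 to 29 FPKM and its activator Camkk2 from 55.9 to 11.5 FPKM, whereas Camk2d went from 13.1 to 57.3 FPKM. The phosphatase Ptpn6 (SHP-1) fell from 267 to 65.4 FPKM, Fes fell and Ptpn22 rose. In the cyclic AMP list 23 of 54 rose and 23 fell, or 18 and 25 on the FPKM scale. Rap1b and its exchange factors Rapgef2 and Rapgef5 rose, Rap1b from 90.5 to 324 FPKM, and Arrb1, Pde4a, Grk6 and Gnaq fell. For Gnaq the means of 45.2 and 31.6 FPKM show a smaller change than its log2 fold change of -1.60 in the authors' deposited table.

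Developmental pathways were divided. Of 26 TGF-beta, BMP and activin genes 13 rose and 8 fell. Tgfbr2, the type II receptor of TGF-beta, went from 103 to 16.8 FPKM and its mediator Smad3 from 5.86 to 0.4 FPKM, whereas the BMP receptor Bmpr1a went from 10.7 to 37.7 FPKM and the corepressor Tgif1 from 36.1 to 104 FPKM. Smurf1 and Acvrl1 rose, and Acvr2b and Smad5 fell. Of 34 Notch, Wnt and Hedgehog genes 14 rose and 13 fell, or 11 and 17 on the FPKM scale. The Wnt receptor Fzd5 went from 0.657 to 12.2 FPKM and beta-catenin, Ctnnb1, from 173 to 415 FPKM. Dtx2 and Dtx4 rose, and the Fringe enzymes Mfng and Lfng, which modify Notch, and the coreceptor Lrp5 fell. Of 19 Hippo pathway genes 10 rose and 5 fell, or 8 and 8 on the FPKM scale, with Ptpn14 from 0.0234 to 6.66 FPKM and Nf2 from 79.9 to 21 FPKM. Sav1, Amotl1 and Stk3 rose, and Taok2 and Fat1 fell.

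Ubiquitin and cell death genes followed. Of 69 conjugating enzymes and cullin ligase parts 36 rose and 18 fell, or 28 and 26 on the FPKM scale. Kctd12 went from 5.97 to 85 FPKM, Rnf19b from 19 to 84.3 FPKM and the p53 ligase Mdm2 from 51.9 to 119 FPKM. Ube2c, Fbxo5 and Skp2, which serve the cell cycle, and Klhl6 fell, Ube2c from 65.7 to 0.907 FPKM. Of 63 genes listed as deubiquitinases 23 rose and 20 fell, or 18 and 33 on the FPKM scale. Usp18 of that list, which removes ISG15, went from 73.1 to 216 FPKM and the linear chain enzyme Otulin from 22.8 to 55 FPKM. Of 34 caspases and apoptosis inhibitors 14 rose and 14 fell, or 12 and 17 on the FPKM scale. The LPS-binding caspase Casp4 went from 31.8 to 158 FPKM and the caspase 8 inhibitor Cflar from 30 to 77 FPKM, and Casp1 and Casp8 rose. Birc5 (survivin) went from 42.1 to 0.323 FPKM, and Casp2 and Htra2 fell.

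Transcription factor genes went both ways, and again genes were named from each direction by rule. In the list of MYC and other basic helix-loop-helix factors 12 of 32 rose (37.5%) and 15 fell (46.9%). Of all tested genes 36.0% rose and 34.7% fell. Myc went from 0.903 to 26.6 FPKM, opposite to the fall of Mycn from 199 FPKM. The haematopoietic factor Lyl1 fell from 149.9 to 17.3 FPKM, and Mitf and Mxd4 fell too, while Mlx and Mxd1 rose. Of 18 KLF and SP factors 10 rose and 6 fell, with Klf6 from 31.3 to 121 FPKM against Klf4 from 16.9 to 6.35 FPKM. The interferon-related Sp140 and Sp110 rose, Klf9 rose, and Klf10, Sp1 and Sp4 fell. Of 34 nuclear receptors and coregulators 10 rose and 16 fell, with Ppard from 13.4 to 35.3 FPKM and Rarb from 4.88 to 0.14 FPKM. Basic leucine zipper genes, looked at after the values were seen, rose in 31 of 42 cases and fell in 9, 25 and 4 by at least 2-fold, with a median log2 fold change of 1.21 in the authors' deposited table.

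Clock genes went both ways. Of 21 tested 8 rose, 5 fell and 8 did not pass, or 6 and 9 on the FPKM scale. The output factors Dbp and Tef went from 10.9 to 0.81 FPKM and from 24.3 to 4.9 FPKM, and Per3 from 4.05 to 0.277 FPKM. Nfil3, which competes with Dbp for its sites, went from 4.64 to 20.4 FPKM and Bhlhe40 from 13.3 to 42 FPKM. Arntl and Per1 rose 2.5-fold and 1.84-fold in the authors' deposited table.

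Genes of macrophage identity were themselves moved. Of 15 tested members 6 rose and 8 fell. The growth factor receptor Csf1r went from 888 to 27.7 FPKM and the chemokine receptor Cx3cr1 from 184 to 0.71 FPKM. Adgre1 (F4/80) went from 31.8 to 65.5 FPKM, Cd14 from 757 to 1406 FPKM and the lineage factor Spi1 from 257 to 329 FPKM. Cebpb went from 14.3 to 94.8 FPKM, and Itgam from 201 to 87.8 FPKM. In the osteoclast list 11 of 23 rose and 10 fell, or 11 and 11 on the FPKM scale. The fusion protein Dcstamp went from 18.3 to 105 FPKM, whereas Trem2 went from 659 to 66.9 FPKM, its adaptor Tyrobp from 1479 to 403 FPKM and Nfatc1 from 24.5 to 5.15 FPKM. Fos fell from 60 to 10.3 FPKM.

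Few markers of other cell types reached 0.5 FPKM on average, and the exception in level was Ighm, at 222 FPKM in CON. The extraction text in the labels names colonic segments, but of 15 colon epithelium markers 0 reached 0.5 FPKM on average, and their summed level was 0.167 (CON) and 0.17 FPKM (LPS). Of 14 neutrophil and mast cell markers 0 were members. Of 15 B lymphocyte markers Ighm and Ighd were members, and the list went from 224 to 2.04 FPKM in sum. Of 14 T and NK lymphocyte markers only Lck, of 13 fibroblast and smooth muscle markers only Acta2 and of 10 dendritic cell markers 1 were members. Acta2 went from 0.947 to 13.7 FPKM and Lck from 5.12 to 7.84 FPKM. Flt1 of the endothelial list (2 members of 9) and Pf4 of the erythroid and megakaryocyte list (3 of 11) rose, to 4.32 and 1.3 FPKM in LPS.

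Genes often used to normalise expression changed about as often as all tested genes. Of 20 tested 6 rose (30%), 7 fell (35%) and 7 did not pass, against 36.0% and 34.7% of all tested genes that rose and fell. On the FPKM scale 5 of the 20 rose and 13 fell. Ywhaz, Ppib and Pgk1 were 2.27-fold to 2.48-fold higher in the authors' deposited table, and Sdha, Ppia, Ipo8 and Hprt were lower, Sdha by a log2 fold change of -1.21. The most abundant genes that did not pass were mainly ribosomal protein genes: Rplp1, Rps27, Rps24, Rps15a, Rpl13a, Rps12, Rpl41 and the predicted loci Gm10443 and Gm11808, with Pkm of glycolysis. Their log2 fold changes lay between -0.15 and 0.09 in the authors' deposited table. On the FPKM scale all of these except Gm10443 and Rps27 fell.

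Changed genes lay side by side in places, by the gene order of GRCm38.p6 and counting tested members only. Runs of at least 5 neighbours that all rose at least 2-fold numbered 14, and runs that all fell as much numbered 4. They were looked for after the values were seen, and chance was not tested. Several hold families whose near-identical copies may share reads: Ifit2, Ifit3, Ifit1bl1, Ifit3b, Ifit1bl2 and Ifit1; Gbp5, Gbp7, Gbp3, Gbp2b and Gbp2; and 7 genes from Ifi204 to Ifi205. A run of 7 joined the stefin genes Stfa2l1, Cstdc4, Csta3, Cstdc5, Stfa2 and Stfa3, which inhibit cysteine proteases, with Cd86. A run of 8 held unrelated genes, Tuba4a, Dnajb2, Ptprn, Dnpep, Speg, Gmppa, Chpf and Tmem198. Runs that fell included Ms4a4c, Ms4a6c, BE692007, Gm8369 and Ms4a6b.

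Shares were also counted by the RefSeq kind of gene. Of 10802 protein-coding genes 16.3% rose and 16.5% fell by at least 2-fold. Of 558 long non-coding RNAs 19.2% rose and 17.9% fell as much, and of 390 pseudogenes 14.1% and 11.03%. The longest listed transcript had a median of 3116 bases in genes that rose at least 2-fold, 3514.5 bases in those that fell and 3281 bases in all tested.

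Not counted as tested were 1035 members, for which the authors' deposited table gives no adjusted p or one at its upper limit. Of these, 874 were loci assembled from reads that the table does not list, and 161 were other genes. Tested members held 98.0% of the summed FPKM in CON and 97.5% in LPS.

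The sum of transcript FPKM and the authors' deposited table pointed opposite ways for 318 genes that passed. Of the genes that passed with at least a 2-fold change, 9 had a log2 ratio of FPKM of the opposite sign, and they were found by looking at the values. Wee1, a kinase that restrains mitosis, went from 12.5 to 19.8 FPKM but had a log2 fold change of -3.32 in the authors' deposited table. Vgll4, a partner of the Hippo pathway factors, had means of 25.8 and 54.5 FPKM against a log2 fold change of -1.03 there. Zfp9 went the other way, at 20.1 and 18.1 FPKM against a log2 fold change of 2.82 in the authors' deposited table. Thbs3, Crygn, Nxpe4, Tnrc6b, Gm2619 and Gm38248 were the others. The direction of these 9 genes was not settled by the files.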

How the data were processed

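RNA was sequenced by the submitters from RAW264.7 cells in 9 samples, of which 3 CON and 3 LPS are compared here, grouped by title. Per the submitters' processing notes, the tools were HISAT2, StringTie and DESeq2 and the build was GRCm39, with tool versions not given in the sources used here. The deposited matrix gives FPKM per transcript, per the file headers, and its columns CON and LPS were used as the authors' group means. The same matrix has 9 library columns whose names match no label, and these were left out of every step. The second file, the authors' deposited table, lists per gene the fold change, its log2 and the raw and adjusted p-values, per the file headers, with no n or standard error. The fold printed in the text is the size of that change in either direction.

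FPKM were summed here by gene identifier, and genes with a mean of at least 0.5 over CON and LPS were kept. Adjusted p-values were taken from the authors' deposited table, with a threshold of 0.05. It gives 17795 genes an adjusted p below the upper limit, and the number of genes adjusted over is not stated. A value listed as 0 is too small for the table. The log2 ratio of FPKM used a pseudocount of 0.5. For the FPKM scale the median offset of 0.24 was taken off each log2 fold change, which was tested with the standard error implied by its p-value, capped at a z of 38, and adjusted by the Benjamini-Hochberg method. This step was tested on simulated data. Gene lists, 54 with 2449 entries, were counted by direction, and 2445 entries matched a gene. The members and lists were chosen with earlier results of these data known. Named genes were the 15 largest rises and falls among genes with at least 1 FPKM in both groups, the 12 largest gains and losses of FPKM, the 12 highest genes under 0.1 FPKM in 1 group, up to 4 per list and direction with the smallest adjusted p, 3 per named pathway, the 5 response markers and the 10 most abundant genes that did not pass. Some genes and 1 list that these rules name are not reported here. Promoter sequences are those of RefSeq, GRCm38.p6. Gene coordinates are not printed otherwise, since the files use another build. Python 3.11.15, pandas 2.3.3, numpy 2.4.6, scipy 1.17.1 and matplotlib 3.10.9 were used. Alternatives were another threshold, filter, scale and pseudocount.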

Additional observations from a re-analysis of the deposited data

How the results depend on the processing

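No paired analysis was possible because the library columns are named in a way that cannot be tied to the labels. The library columns were also not given a group by their values, and were left out by that choice. The planned limma fit, the replicate block and leaving out each library in turn were therefore not run. Whether 1 library decides a value was not tested and is unknown. With a threshold of 0.01, a filter of 1 FPKM or no filter, the counts of genes that rose and fell stayed within 1.5 times those reported. Asking for at least a 2-fold change as well took the number of genes changed between LPS and CON to 4173, of which 2099 rose and 2074 fell. On the FPKM scale the share of calls that were upward was 38.4%. The median log2 ratio of group mean FPKM was -0.18 with a pseudocount of 0.5 and -0.20 and -0.17 with 0.1 and 1.

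Of 45 list medians 13 changed sign on the FPKM scale, by its construction as a constant shift: translation factors (-0.24), G protein-coupled receptors (-0.038), ion channels (-0.22), NAD and tryptophan (-0.061), cyclic AMP (-0.24), MAP kinases (-0.089), circadian clock (-0.17), ubiquitin enzymes (-0.045), deubiquitinases (-0.20), galectins and siglecs (-0.14), clearance of dying cells (-0.0073), osteoclast genes (-0.0076) and S100 and annexins (-0.13). With a filter of 1 FPKM 2 medians turned positive, those of PI3K, AKT and mTOR (0.017) and Notch, Wnt and Hedgehog (0.040). With no filter 4 changed sign: G protein-coupled receptors (-0.0500), ion channels (-0.036), NAD and tryptophan (-0.38) and Hippo (-0.032). The cause was not tested. Of 472 named genes 1 that passed had a log2 ratio of FPKM of the opposite sign, Vgll4 (1.07), 53 others had one that differed from the log2 fold change by more than 1, and 418 lay within 1 of it. Over all genes that passed, 318 had a log2 ratio of FPKM of the opposite sign, 9 of them with at least a 2-fold change. Depth limits the precision of low genes to an unknown degree, since the files used give no counts.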
